A study of Mus musculus with 4 samples.

Results

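Prss2, Ctrb1, Ctrl, Cela1, Clps and Reg1, which encode secreted products of the exocrine pancreas, were followed across 4 arrays of mouse liver RNA. The members are all probe sets that the platform annotation gives to these 6 genes alone, which are 7 probe sets and 6 of the 8251 genes that have a probe set of their own. The genes were chosen because 4 of them were known to stand out on 1 array of this series, so their own values are a description and carry no test. Livers came from female mice that were killed in the fed state at 8 months of age, after 6 months on their diet. The groups were HSL-null on the high-fat diet (FD, 58% of energy from fat, 4 livers pooled), HSL-null on the normal diet (ND, 11% of energy from fat, 6 livers pooled), wild type on FD (6 livers pooled) and wild type on ND (6 livers pooled). HSL-null mice lack hormone-sensitive lipase, encoded by Lipe, in the whole body, and apart from pool size the labels name only diet and genotype as differences. No label names the strain. Each pool went onto 1 MG_U74Av2 oligonucleotide array, so no group has a replicate, animals within a pool cannot be seen one by one, and "higher" and "lower" describe these 4 pools.

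Acinar cells make up most of the pancreas and export digestive enzymes as inactive precursors, which are activated in the gut. Trypsin starts this cascade by cutting the other precursors, among them the chymotrypsinogens and proelastases. These transcripts are among the most abundant of the acinar cell. The transcription complex PTF1 and the nuclear receptor NR5A2 drive acinar enzyme genes, and NR5A2 is also active in liver. The pancreas lies close to the liver, and the genes were shown on the 4 arrays as a check for carried-over pancreas tissue.

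Values are MAS5 signals on a linear scale. A lower limit of 6.1 (the floor), under which 25% of all signals lay, was put under every signal before log2 ratios were taken. The error of a ratio could be read only from 687 genes with more than 1 bright probe set. The SD of the difference in log2 ratio between 2 probe sets of a gene was divided by the square root of 2. This gave an SD of 0.298 for a single ratio. That SD leaves out error shared by an array and the variation between animals. The median signal was 25.2 to 28.3 per array, and 24.1 to 26.0% of probe sets lay at or under the floor. Lipe had signals of 15.9 (HSL-null FD) and 11.9 (HSL-null ND), against 34.0 (wild-type FD) and 28.0 (wild-type ND). The run settings gave different solution lots for the 2 genotypes, so that lot and genotype cannot be told apart, while chip lot and scan day were shared. The liver identity of every pool was clear from albumin, as Alb had signals of 4679.9 in HSL-null FD, 5382 in HSL-null ND, 4976.4 in wild-type FD and 6913 in wild-type ND.

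Prss2, Ctrb1, Clps and Reg1 had their highest signals in wild-type liver on ND, by 2.18-fold to 8.94-fold over the next array. Ctrl and Cela1 did not share this pattern. On the other 3 arrays, which include the remaining wild-type pool and both HSL-null pools, the 4 genes showed no such peak. In bulk RNA, fewer cells of a type and less RNA per cell cannot be told apart.

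Prss2 encodes a trypsinogen, the precursor of the protease that activates the others. Its probe set 92873_f_at had a signal of 1.9 in HSL-null FD, 15.2 in HSL-null ND, 4.6 in wild-type FD and 135.9 in wild-type ND. It lay under the floor on both FD arrays and was clearly above it on the wild-type ND array. Prss2 was 8.94-fold lower in HSL-null than in wild type on ND, a log2 ratio of -3.16, and at least 22.3-fold lower on FD than on ND in wild type. In HSL-null liver it was at least 2.49-fold lower on FD than on ND, and on FD no genotype ratio could be formed. The suffix of this probe set marks probes shared within a gene family, so its signal may include other trypsinogens.

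Ctrb1 encodes chymotrypsinogen B, a serine protease precursor. Its probe set 160421_r_at had a signal of 49.8 in HSL-null FD, 67.9 in HSL-null ND, 74.1 in wild-type FD and 286.3 in wild-type ND. The wild-type ND array lay 212.2 signal units above the next array, and the other 3 lay within 1.49-fold of each other. Ctrb1 was 4.22-fold lower in HSL-null than in wild type on ND, with a log2 ratio of -2.08, and 3.86-fold lower on FD than on ND in wild type. Its log2 ratio was -0.57 for genotype on FD and -0.45 for diet in HSL-null liver, less than 2-fold in both.

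Ctrl encodes chymotrypsin-like protease, a relative of Ctrb1. Its probe set 160744_r_at had a signal of 96.9 in HSL-null FD, 89.5 in HSL-null ND, 134.1 in wild-type FD and 109.6 in wild-type ND. The highest value was on the wild-type FD array, and the whole range was 1.5-fold. The log2 ratios were -0.29 for genotype on ND, -0.47 for genotype on FD, 0.29 for diet in wild type and 0.11 for diet in HSL-null liver. Of these, only -0.47 was larger in size than the SD of 0.298 for a single ratio.

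Cela1 encodes a pancreatic elastase. Its probe set 93783_at had a signal of 184.1 in HSL-null FD, 116.4 in HSL-null ND, 99.9 in wild-type FD and 158.5 in wild-type ND. The highest array here was HSL-null FD, the pool of 4 livers, with wild-type ND second. Cela1 was 1.84-fold higher in HSL-null than in wild type on FD, a log2 ratio of 0.88, and had a log2 ratio of -0.45 for genotype on ND. Diet gave a log2 ratio of -0.67 in wild type and of 0.66 in HSL-null liver, and none of the 4 ratios reached 2-fold.

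Clps encodes colipase, the cofactor that anchors pancreatic lipase to fat droplets. Its probe set 160132_at had a signal of 43.2 in HSL-null FD, 38.2 in HSL-null ND, 42.6 in wild-type FD and 118.8 in wild-type ND. The first 3 values lay within 1.13-fold of one another, and the wild-type ND array stood 2.75-fold above the highest of them. Clps was 3.11-fold lower in HSL-null than in wild type on ND and 2.79-fold lower on FD than on ND in wild type, with log2 ratios of -1.64 and -1.48. Between genotypes on FD its log2 ratio was 0.02 (-0.12 after quantile normalization), and between diets in HSL-null liver 0.18.

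Reg1 encodes a secreted C-type lectin of acinar cells, also known as lithostathine. Its brighter probe set, 160213_at, had a signal of 27.0 in HSL-null FD, 15.2 in HSL-null ND, 22.2 in wild-type FD and 58.8 in wild-type ND. It was 3.87-fold lower in HSL-null than in wild type on ND and 2.65-fold lower on FD than on ND in wild type. Its log2 ratio was 0.28 for genotype on FD and 0.83 for diet in HSL-null liver. The other probe set of Reg1, 162312_f_at, had signals of 0.6 (HSL-null FD), 0.2 (HSL-null ND), 0.7 (wild-type FD) and 1.4 (wild-type ND). It lay under the floor on 4 of 4 arrays and gave no ratio. With the 2 probe sets averaged, the log2 ratio of Reg1 was -0.98 for genotype on ND and -0.7 for diet in wild type, so that neither reached 2-fold, and with a pseudocount of 16 in place of the floor it was -1.26 and -0.97.

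**Figure D1:**
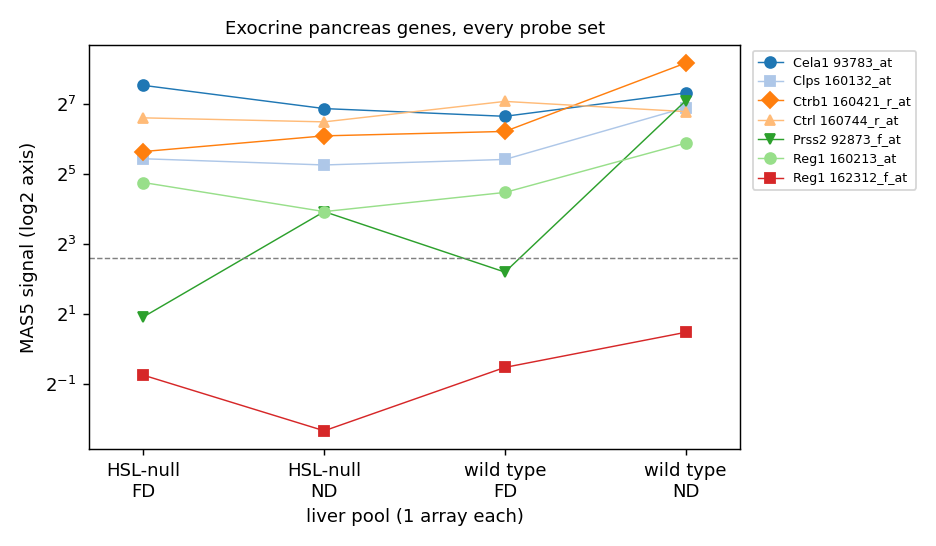
MAS5 signal (log2 axis) of the 7 probe sets of the 6 genes on the 4 arrays, 1 pool per array, with the floor of 6.1 as a dashed line and lines only to help the eye. Prss2, Ctrb1, Clps and the brighter probe set of Reg1 peak on the wild-type ND array, at 135.9, 286.3, 118.8 and 58.8, while Ctrl and Cela1 peak elsewhere.

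As a group, 4 of the 6 members were 2-fold or more lower in HSL-null than in wild type on ND, where 1.08% of the 4829 genes with a mean signal of at least 26.9 were lower by that much. The members' median log2 ratio was -1.79, beside a median of -0.02 over those 4829 genes. For FD against ND in wild type, the same 4 members were lower by 2-fold or more, beside 2.36% of all kept genes, and the medians were -1.44 and -0.05. These 2 comparisons share the wild-type ND array, and the members were picked for their values on it, so nothing is read from their shares. For genotype on FD, 0 of 6 members were lower by 2-fold, beside 0.953% of all genes, and the median was 0.01, beside 0.07. For diet in HSL-null liver, 1 of 6 was lower, which is Prss2 with FD at the floor, beside 0.621% of all genes, and the medians were 0.15 and 0.04. None of the 4 comparisons had a member 2-fold or more higher, beside 0.497% of kept genes for genotype on ND, 1.86% for genotype on FD, 0.787% for diet in wild type and 0.828% for diet in HSL-null liver. All 6 members passed the signal filter, but Prss2 and Reg1 did so only through the wild-type ND array, since their mean over the other 3 arrays was 7.233 and 21.47.

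**Figure D2:**
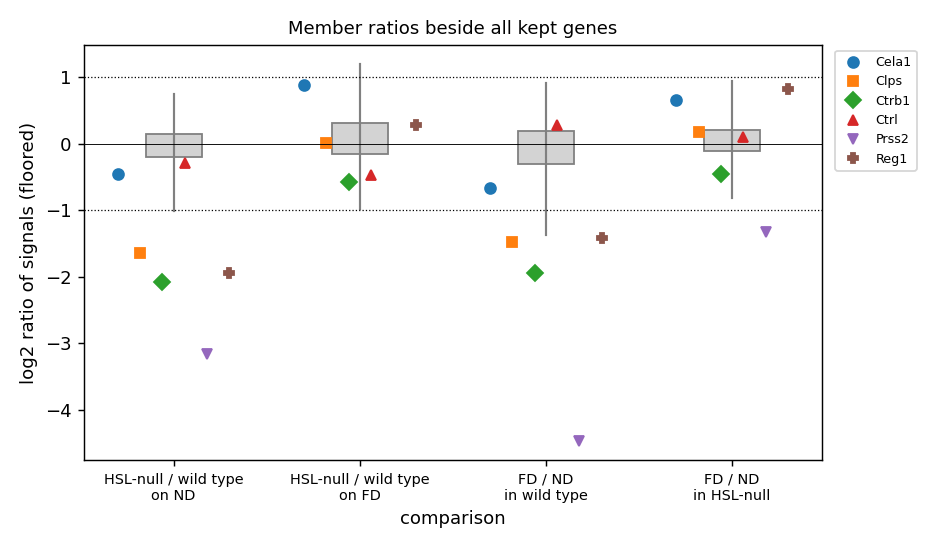
Log2 ratio of floored signals for the members in the 4 comparisons, beside all 4829 kept genes (grey box for the interquartile range, grey line from the 1st to the 99th percentile), with dotted lines at 2-fold. Prss2, Ctrb1, Clps and Reg1 lie below -1 in both ratios that have wild-type ND as denominator, and Prss2 is missing for genotype on FD, where both arrays were under the floor.

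Among other acinar secretory genes, 16 of the 40 names listed had a probe set of their own, and 11 of these 16 had their highest signal on the wild-type ND array. That array was highest for 27.0% of the 8251 genes taken without a signal filter. It stood 2-fold or more above each other array for 5 of the 16, beside 0.558% of the 8251 genes, and for these 16 genes no other array did so. The list was drawn up with the behaviour of the pancreas genes in these data known, so this is a description. Of the 16, 3 passed the signal filter.

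Reg2, a relative of Reg1, had signals of 2.7 in HSL-null FD, 2.2 in HSL-null ND, 3 in wild-type FD and 43.2 in wild-type ND. It was above the floor on the wild-type ND array only, at least 7.08-fold lower both for genotype on ND and for diet in wild type, though another probe set of Reg2 had log2 ratios of -0.14 and 0.21. Zg16, which encodes a zymogen granule protein, had signals of 2.6 (HSL-null FD), 3.9 (HSL-null ND), 2.9 (wild-type FD) and 34.1 (wild-type ND), at least 5.59-fold lower in each of the same comparisons. Sycn, which encodes syncollin of the zymogen granule membrane, had 2.3 (HSL-null FD), 7 (HSL-null ND), 1.7 (wild-type FD) and 28.3 (wild-type ND). Both granule genes were thus near or under the floor outside the wild-type ND pool.

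Pnliprp1, a pancreatic lipase relative, had signals of 1.1 in HSL-null FD, 2.2 in HSL-null ND, 1.1 in wild-type FD and 19.1 in wild-type ND, and lay under the floor on the first 3. Cela2a, another elastase gene, had 20.1 (HSL-null FD), 27.4 (HSL-null ND), 27.1 (wild-type FD) and 70.1 (wild-type ND). Unlike Cela1, Cela2a was more than 2-fold lower in both comparisons, with log2 ratios of -1.36 for genotype on ND and -1.37 for diet in wild type. Cel, which encodes the bile salt-activated carboxyl ester lipase, had 57.7 in HSL-null FD, 50.2 in HSL-null ND, 70.5 in wild-type FD and 139.4 in wild-type ND. It lay just inside the 2-fold line for diet in wild type, at -0.98, and past it for genotype on ND, at -1.47.

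Rnase1, the pancreatic ribonuclease, and Tff2, a trefoil peptide also made in stomach, were above the floor on the wild-type ND array alone, at 9.3 and 11.4. Pla2g1b, the pancreatic phospholipase A2, had 147.9 in HSL-null FD, 180.8 in HSL-null ND, 137.7 in wild-type FD and 188 in wild-type ND, so wild-type ND was its highest array by only 1.04-fold. Reg3b, a lectin that inflammation induces, differed in another way, with 23.9 (HSL-null FD), 9 (HSL-null ND), 5.8 (wild-type FD) and 19.5 (wild-type ND), so that HSL-null FD was its highest array. In all, 7 of the 16 were 2-fold or more lower for genotype on ND, beside 2.64% of genes without a filter, and 6 of the 16 for diet in wild type, beside 4.07%. For genotype on FD and for diet in HSL-null liver, 0 of the 16 were lower, beside 1.72% and 1.25%, and 1 was higher, Reg3b in both, beside 3.36% and 2.27%.

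**Figure D3:**
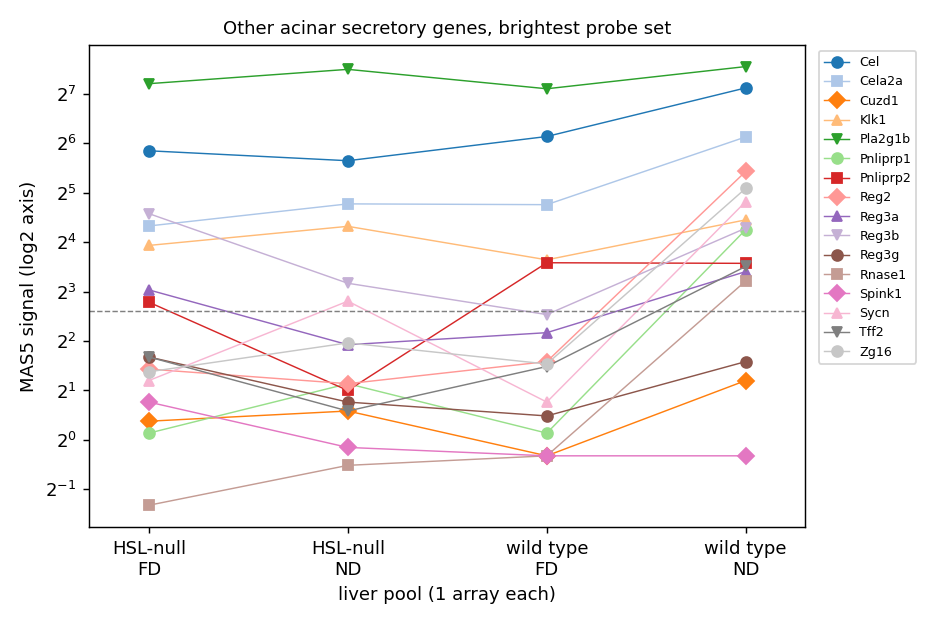
MAS5 signal (log2 axis) of the 16 other acinar secretory genes at their brightest probe set on the 4 arrays, with the floor of 6.1 dashed and lines only to help the eye. Reg2, Zg16, Sycn and Pnliprp1 reach 43.2, 34.1, 28.3 and 19.1 on the wild-type ND array and lie at most at 7 elsewhere, whereas Pla2g1b stays between 137.7 and 188.

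In signal units the wild-type ND array lay above the other 3 by 212.2 to 236.5 for Ctrb1, by 120.7 to 134 for Prss2, by 75.6 to 80.6 for Clps and by 31.8 to 43.6 for Reg1. For Cela1 the difference of wild-type ND from the other arrays was -25.6 from HSL-null FD, 42.1 from HSL-null ND and 58.6 from wild-type FD. For Ctrl it was 12.7 from HSL-null FD, 20.1 from HSL-null ND and -24.5 from wild-type FD.

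Of the 4829 kept genes, 9 stood 2-fold or more above each other array on wild-type ND, or 0.186%. Prss2, Reg1 and Cela2a are among the 9 only because that array carried their mean past the signal filter, as their means over the other 3 arrays were 7.233, 21.47 and 24.87. The 9 genes of wild-type ND were the members Prss2, Ctrb1, Clps and Reg1, the elastase gene Cela2a, the gene 2210010C04Rik (3.01-fold, a probe set with the family suffix), and 3 genes of leukocytes. The leukocyte genes were Itgb2, a beta2 integrin subunit (2.39-fold), Cd72, a surface protein of B cells (2.16-fold), and Prkcb, a protein kinase C (2.09-fold). The 8 kept genes nearest to the members' mean profile, by Euclidean distance between log2 values centred over the 4 arrays, were 2210010C04Rik (0.17), Cela2a (0.38), Prkcb (0.41), Cel (0.48), Cd48 (0.5), Hnrnpul2 (0.55), Itgax (0.62) and Itgb7 (0.62). For comparison, the members themselves lay at 0.16 for Clps, 0.6 for Reg1, 0.67 for Ctrb1, 1.29 for Cela1, 1.41 for Ctrl and 2.37 for Prss2.

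Markers of other tissues were set beside the pancreas genes, array by array. The summed signal of the 6 members was 402.9 in HSL-null FD, 342.4 in HSL-null ND, 377.5 in wild-type FD and 867.9 in wild-type ND. For the 16 other acinar genes it was 298.5 in HSL-null FD, 314.8 in HSL-null ND, 285.4 in wild-type FD and 612.9 in wild-type ND. Both sums were thus about the same on 3 arrays and higher on 1.

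Genes of the pancreatic islet had sums over 20 genes of 219.8 in HSL-null FD, 205.7 in HSL-null ND, 233.5 in wild-type FD and 223.4 in wild-type ND. Of the 20 islet genes, 10 were at or under the floor on all 4 arrays, among them the hormone genes Ins2, at most 3.4, and Iapp, at most 0.6. Pax4, a transcription factor gene of the islet lineage, was the 1 islet gene highest in wild-type ND, with 12.9 in HSL-null FD, 30.6 in HSL-null ND, 8.3 in wild-type FD and 43 in wild-type ND, or log2 ratios of -0.49 for genotype on ND and -2.37 for diet in wild type. Regulators and membrane genes of the acinar cell, of which 7 were on the array, had 0 of 7 highest in wild-type ND. That array was highest for 27.0% of the 8251 genes without a filter, and nothing is read from the regulator and islet counts. The sums of the regulators were 1669 in HSL-null FD, 1761 in HSL-null ND, 1999 in wild-type FD and 1744 in wild-type ND. Rbpjl, the pancreas-restricted subunit of PTF1, had 19.4 in HSL-null FD, 16 in HSL-null ND, 12 in wild-type FD and 15.1 in wild-type ND, and Nr5a2 and Gata4, which liver expresses too, had log2 ratios of at most 0.17 in size between arrays of a comparison.

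Duct genes, 11 on the array, had sums of 1400 in HSL-null FD, 1331 in HSL-null ND, 1375 in wild-type FD and 1200 in wild-type ND, and intestine and stomach genes, 13 on the array, had 1528, 865.5, 1199 and 848.4 in the same order. Ctse at its brightest probe set made up 749.6 of the gut sum in HSL-null FD and 249.6 in HSL-null ND. Its probe set 93860_i_at had 456.3 and 122.4 on these arrays, but 104696_at went the other way, with 21.4 and 171.2. Lymphoid genes, 15 on the array, had 386.4 in HSL-null FD, 349.6 in HSL-null ND, 307.5 in wild-type FD and 444.9 in wild-type ND. The wild-type ND sum was the highest, but Cd52 alone made up 194.7 of it. The median log2 ratio of the lymphoid list was 0 for genotype on ND and 0 for diet in wild type, with genes floored on both arrays counted as 0. For genotype on ND, 12 genes were above the floor on at least 1 array, 6 higher and 6 lower in HSL-null. For diet in wild type there were 10 such genes, 3 higher and 7 lower on FD. Adipose genes, 12 on the array, had 4865 in HSL-null FD, 4676 in HSL-null ND, 4395 in wild-type FD and 4523 in wild-type ND. In each of these 4 lists and in the islet list, 0 genes stood 2-fold above every other array on wild-type ND. This is near the share of 0.558% of the 8251 genes without a filter, so nothing is read from it. Adipoq came closest at 1.97-fold, with signals of 4.9 (HSL-null FD), 4.8 (HSL-null ND), 9.2 (wild-type FD) and 18.1 (wild-type ND). Hepatocyte genes also had their highest sum on wild-type ND, with 42300 in HSL-null FD, 46450 in HSL-null ND, 40030 in wild-type FD and 54110 in wild-type ND. Of 16 hepatocyte genes, 11 were highest on that array, beside 27.0% of the 8251 genes without a filter. The brightest genes of most of these lists are also expressed by liver cells. They were Vamp8 and Xbp1, secretory pathway genes, among the acinar regulators, the keratin genes Krt8 and Krt18 with Car2 among the duct genes, Ctse, Fabp2 and Anpep among the gut genes, and Car3, Adipor2 and Pck1 among the adipose genes. In the islet list they were Ptprn, Ppy and Chga, and in the lymphoid list Cd52, Ms4a1 and Ltb. Cd52, a surface peptide of leukocytes, had 128.5 in HSL-null FD, 125.2 in HSL-null ND, 104.2 in wild-type FD and 194.7 in wild-type ND. Of the 15 lymphoid genes, 4 were highest in wild-type ND, namely Cd52, Ptprc, Cd79b and Cd3g, beside 27.0% of the 8251 genes without a filter. HSL-null FD was likewise the highest array for 4 lymphoid genes, HSL-null ND for 3 and wild-type FD for 2, so nothing is read from this count. Ptprc, the CD45 gene, had 36.6 in HSL-null FD, 24.4 in HSL-null ND, 13.7 in wild-type FD and 47.8 in wild-type ND, with log2 ratios of -0.97 for genotype on ND and -1.8 for diet in wild type. Cd79b, of the B cell receptor, had 31.2 in HSL-null FD, 19.8 in HSL-null ND, 20.6 in wild-type FD and 38.3 in wild-type ND, with log2 ratios of -0.95 and -0.89. Cd3g, of the T cell receptor, was above the floor in wild-type ND alone, at 10.5. The secreted liver proteins Alb and Apoa1 and the cytochrome P450 gene Cyp2e1 led the hepatocyte list. The part of leukocyte and hepatocyte signals in the pancreas result was not tested, nor was the presence of pancreas tissue in a pool.

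**Figure D4:**
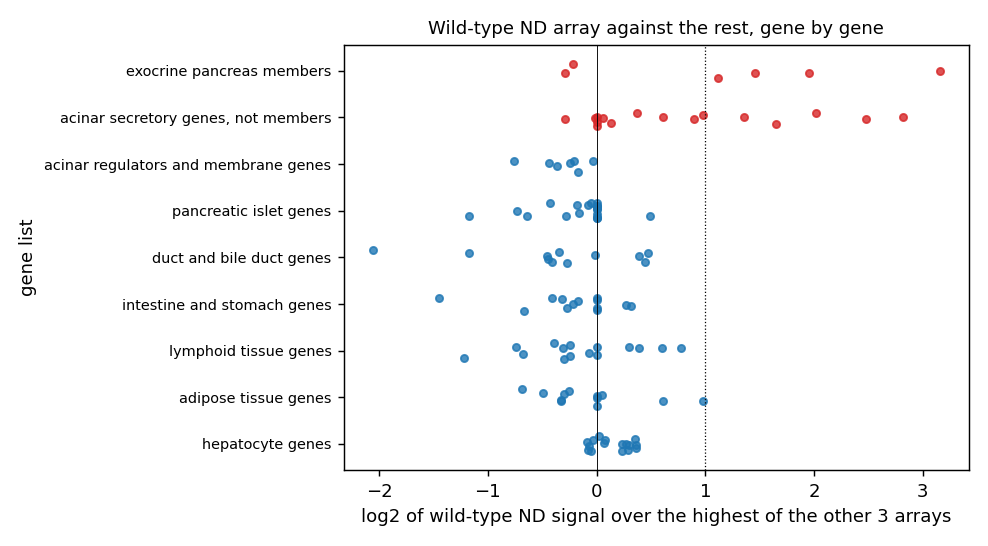
Log2 of the wild-type ND signal over the highest of the other 3 arrays for each gene (brightest probe set), by gene list, with the dotted line at 2-fold and pancreas secretory genes in red. Only points of the 2 pancreas secretory lists lie past the line, 4 of 6 members and 5 of 16 other acinar genes, beside 0.558% of the 8251 genes without a filter. The other lists are too short for their lack of such points to be read as a result.

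The promoters of members on both sides of this split are shown because members that peaked together could be read beside members that did not. RefSeq sequences of GRCm38.p6 were matched by symbol for 5 of the 6 genes, and the 250 bases before each gene start are given 5' to 3' on the gene's strand. Capitals mark CACCTG and TTTCCC, the E-box and TC-box parts of a PTF1 site, on either strand.
Prss2 (chr6:41521526-41521775, plus strand): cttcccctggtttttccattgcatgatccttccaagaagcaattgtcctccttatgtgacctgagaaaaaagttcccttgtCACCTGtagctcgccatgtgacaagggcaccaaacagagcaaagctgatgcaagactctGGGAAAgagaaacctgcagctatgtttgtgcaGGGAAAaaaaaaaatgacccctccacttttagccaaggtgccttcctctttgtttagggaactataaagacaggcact
Ctrb1 (chr8:111691011-111691260, minus strand): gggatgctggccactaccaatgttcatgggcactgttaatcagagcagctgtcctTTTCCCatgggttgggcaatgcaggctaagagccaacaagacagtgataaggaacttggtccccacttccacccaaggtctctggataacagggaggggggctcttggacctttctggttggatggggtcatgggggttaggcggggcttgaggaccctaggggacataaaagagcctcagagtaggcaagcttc
Reg1 (chr6:78425733-78425982, plus strand): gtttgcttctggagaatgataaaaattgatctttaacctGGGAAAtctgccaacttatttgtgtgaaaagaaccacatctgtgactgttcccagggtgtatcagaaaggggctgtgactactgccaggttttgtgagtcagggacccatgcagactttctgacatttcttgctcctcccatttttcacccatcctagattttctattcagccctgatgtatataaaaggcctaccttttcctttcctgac
Ctrl (chr8:105933863-105934112, minus strand): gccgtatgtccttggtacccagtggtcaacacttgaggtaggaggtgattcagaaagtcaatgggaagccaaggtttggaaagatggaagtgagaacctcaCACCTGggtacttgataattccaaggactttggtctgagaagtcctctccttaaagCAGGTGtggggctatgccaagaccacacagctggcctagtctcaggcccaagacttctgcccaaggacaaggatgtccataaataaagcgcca
Cela1 (chr15:100687921-100688170, minus strand): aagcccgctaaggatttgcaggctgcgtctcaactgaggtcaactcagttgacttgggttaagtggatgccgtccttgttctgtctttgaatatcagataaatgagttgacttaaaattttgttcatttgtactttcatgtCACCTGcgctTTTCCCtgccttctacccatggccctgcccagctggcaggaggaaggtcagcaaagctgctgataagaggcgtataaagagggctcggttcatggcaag
CACCTG was found, on either strand, in 3 of the 5 windows from 250 bases before to 50 after the start, and in 20.2% of the 32851 RefSeq promoter windows of that length. TTTCCC was found in 4 of the 5 and in 25.2% of all windows. Both motifs stood together in Prss2, which peaked, and in Cela1, which did not, beside 4.86% of all windows. In Cela1 the 2 motifs start 109 and 99 bases before the gene start, and in Prss2 CACCTG starts 169 bases before it and the nearest TTTCCC, on the opposite strand, 110. Of these exact letters, Ctrb1 and Reg1 held TTTCCC alone, and Ctrl held CACCTG alone. Other forms of the E-box were not searched, such as the CAGCTG that lies just before TTTCCC in Ctrb1. The site CAAGGTCA of NR5A2 was in 0 of the 5 windows and in 1.56% of all. A match is a description of the letters in the window and does not show a bound factor.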

How the data were processed

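Liver RNA pools were labelled with biotin and hybridised to 1 array each, per the labels' protocols. The intensity values the authors deposited, 1 for each probe set of an array, are linear; the submitters' processing notes name MAS5 without a version. The 2% trimmed mean was 100.09 on each array, so the values had been scaled. Other deposited run settings, of no expression value, gave the lots, and named the labelled diet on 4 of 4 arrays.

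Of 12422 probe sets that are not controls, 10833 had 1 gene in the platform annotation, 396 had several and 1193 had none; the last 2 kinds were not named, which leaves out amylase and trypsinogen probe sets shared by genes. Symbols of 6 of 6 members matched RefSeq of GRCm38.p6 by gene ID. Signals were floored at 6.1 and taken to log2. The 4829 kept genes had a mean signal of at least 26.9, the median, each at its brightest probe set. A fold against a floored array is "at least". With 1 array a group no difference was tested, and precision is limited by how few arrays there are. The counting was tested on simulated data.

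Members and lists were chosen with earlier results of these data known. Named genes were all member probe sets, acinar genes kept or at least 2-fold different above the floor, the 3 brightest genes of other lists, their defining genes at the floor and the 8 nearest profiles; Reg2, Zg16, Pnliprp1, Rnase1, Tff2, Rbpjl, Gata4, Itgb2, Cd72, Pax4, Ptprc, Cd79b, Cd3g and Adipoq were named after their values were seen. Alternatives were other normalizations (limma 3.58.1 in R 4.3.3), floors, probe set rules, filters and thresholds. Python 3.11.15 did the rest.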

Additional observations from a re-analysis of the deposited data

Results flagged for a closer look

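Of the 6 genes, 3 had genotype ratios of opposite sign on the 2 diets, and diet ratios of opposite sign in the 2 genotypes. Prss2 could not be judged, since it lay under the floor on both FD arrays. The share of all genes with such signs was not computed, so nothing is read from this count. The difference between the ratios was not tested. For Clps the genotype sign rests on the scaling, as its FD genotype ratio of 0.02 became -0.12 under quantile normalization, -0.15 under median scaling and -0.12 under cyclic loess, the sign of its ND ratio, and 2 genes were left for genotype. Its diet ratio in HSL-null liver kept its sign, at 0.06, 0.02 and 0.07 in the same order, so 3 genes were left for diet. These diet ratios of Clps were smaller than the SD of 0.298. The genotype log2 ratio on FD minus that on ND, which equals the diet ratio in HSL-null minus that in wild type, was 2.23 for Reg1, 1.66 for Clps and 1.33 for Cela1. Reg1 and Clps had FD genotype ratios of 0.28 and 0.02, so for them the difference rests on the ND ratios of -1.95 and -1.64. Cela1 had 0.88 on FD and -0.45 on ND, both less than 2-fold.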

How the results depend on the processing

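No paired analysis was possible because each group has 1 array. Over all alternatives the members' median log2 ratio stayed between -1.79 and -1.04 for genotype on ND and between -1.44 and -1.07 for diet in wild type. For genotype on ND the median was -1.39 with the floor at the median of all values, -1.29 with a pseudocount of 16, -1.31 with probe sets averaged per gene and -1.04 over the 4 members past 2 times the signal filter. For diet in wild type it was -1.09 with the pseudocount, -1.09 with averaged probe sets and -1.07 past the stricter filter. Reg1 fell short of 2-fold with averaged probe sets, at -0.98 for genotype on ND and -0.7 for diet in wild type, and with the pseudocount for diet, at -0.97, which left 3 of 6 members each time. Prss2, Ctrb1 and Ctrl each rest on 1 suffix probe set, so without suffix probe sets only Cela1, Clps and Reg1 are left. Of the 3 left, 2 were 2-fold lower in each of these comparisons, as were 2 of the 4 members past the stricter filter. With a 3-fold threshold 2 members were lower for diet in wild type. The 1 lower member for diet in HSL-null liver, Prss2, became 0 with the floor at the median, the pseudocount, no suffix probe sets, the stricter filter and the 3-fold threshold, and the median there was 0.66 without suffix probe sets. The count of other acinar genes lower for genotype on ND was 2 with the floor at the median, 3 with the pseudocount, 1 of 2 past the stricter filter, 11 at 1.5-fold and 4 at 3-fold. For diet in wild type it was 1 with the floor at the median, 0 of 2 past the stricter filter and 11 at 1.5-fold. Past the main signal filter, an alternative chosen after seeing the data, the counts were 2 and 1 of 3 genes. These counts fall where genes are removed or raised to a higher floor, since most acinar genes lie under the filter. Single genes moved by more than the SD of 0.298 in 15 of 220 values, and none of the called ratios changed sign. Many of the 220 could not move. Dropping the signal filter or applying it left all 6 members as they were, and averaging probe sets changed only Reg1. Median scaling took the median of all genes for genotype on ND to 0.11, against -0.02 as deposited. Signals under the floor give bounds only, as for Reg2, Zg16 and Pnliprp1 in both comparisons and for Prss2 and Sycn in the diet comparison of wild type.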
